A study of Ovis aries with 12 samples.

Results

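Messenger RNA was measured in fetal longissimus, the long muscle of the back, at 2 gestational ages in Suffolk by Texel crossbred sheep: day 85 (G85) and day 133 (G133), with 3 libraries each. These 6 libraries were chosen by the age in their labels, out of 12 libraries in the series; the other 6 are postnatal, 3 from day 42 (D42) and 3 from day 243 (D243). The labels state no treatment and no allele for any group, and do not say whether a library holds 1 animal or a pool. The G85 and G133 columns carry 6 different numbers, so no fetus appears at both ages as far as the labels show. All 15743 genes of the table were compared, G133 against G85.

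Skeletal muscle fibres form before birth, when myoblasts fuse into primary fibres and later into secondary fibres around them. Fibre formation then gives way to growth in which existing fibres enlarge and take up nuclei from satellite cells, which is called hypertrophy. As fibres mature, messenger RNA for contractile proteins and energy metabolism comes to make up much of the muscle's RNA, and developmental forms of contractile proteins give way to adult forms. In sheep much of this takes place within gestation.

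Genes in the table carry Ensembl identifiers alone. Of these, 0 matched the reference gene table used here, so genes are described as groups by level and by direction, and 4 are given by identifier. For the same reason the labelled tissue could not be checked against muscle markers, and markers of blood, fat, nerve or connective tissue could not be followed. In a whole tissue, fewer cells of a type and less RNA per cell cannot be told apart.

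Levels are CPM, the reads of a gene scaled to a library total of 1000000 reads. Reads totalled 15637901 to 21793358 per library at G85 and 15673716 to 23255962 at G133, so 1 read was worth 0.043 to 0.0639 CPM. CPM are not corrected for transcript length, so a rank by CPM is a rank by share of reads. CPM are also shares of a fixed total, so each comparison is given as deposited and on a median-ratio scale, where a library is divided by its median ratio to the geometric mean of all libraries, taken over the genes. Changes are differences of log2(value + 1), G133 minus G85, tested with limma. A gene was called where its p, adjusted over all genes (Benjamini-Hochberg), was under 0.05. Nothing in the labels says more of how replicates were taken, so a p-value refers to the spread among the libraries at hand. In the limma tests that spread is 1 estimate per gene over all 12 libraries, fetal and postnatal.

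One G133 library stood apart from the other two and lay closer both to G85 and to D42. The root mean square log2 distance of G133 replicate 1 from the other G133 libraries averaged 0.44, against 0.361 for replicate 2 and 0.385 for replicate 3. Its distance to the mean of G85 was 0.62, against 0.711 and 0.704 for replicates 2 and 3. Its distance to the mean of D42 was 0.552, against 0.705 and 0.739. Among the 3 G133 libraries, replicate 1 had the value nearest to the G85 mean in 6779 genes (43.1%), replicate 2 in 4055 (25.8%) and replicate 3 in 4909 (31.2%). At G85 the distance of a library from the other two was 0.274 to 0.333. The reason was not tested, and the main counts are also given without this library.

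Genes that are abundant in muscle after birth took up a larger part of the RNA at G133 than at G85. Genes were ranked by their mean CPM in the 6 postnatal libraries, which are not part of the fetal comparison, and put in 4 bands: the top 50, the next 450, the following 4500 and the remaining 10743. The 50 genes highest after birth held 9.43%, 9.22% and 11.5% of reads in the 3 G85 libraries and 25.5%, 22.9% and 19.1% in the 3 G133 libraries. Every G133 library was above every G85 library, and the means were 10.06% ± 1.28 and 22.49% ± 3.21 (SD, n = 3 each). The difference of 12.4 percentage points gave a two-sided exact permutation p of 0.1, the smallest that 3 against 3 allows (adjusted p = 0.133 over 4 bands). After birth these 50 genes held 45.59% ± 0.537 (D42) and 46.29% ± 3.44 (D243).

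The other bands moved less or in the other direction. The next 450 genes held 28.03% ± 2.45 of reads at G85 and 30.31% ± 3.82 at G133, and the libraries of the 2 ages overlapped (exact permutation p = 0.5). Within G133 this band held 26.1% in replicate 1, 31.3% in replicate 2 and 33.5% in replicate 3, while the top band had the reverse order. The following 4500 genes held 42.3% ± 1.29 at G85 and 34.44% ± 0.7 at G133. The remaining 10743 genes held 19.62% ± 0.661 and 12.76% ± 0.895. In both of these lower bands no G133 library reached the range of G85 (exact permutation p = 0.1, adjusted p = 0.133).

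**Figure D1:**
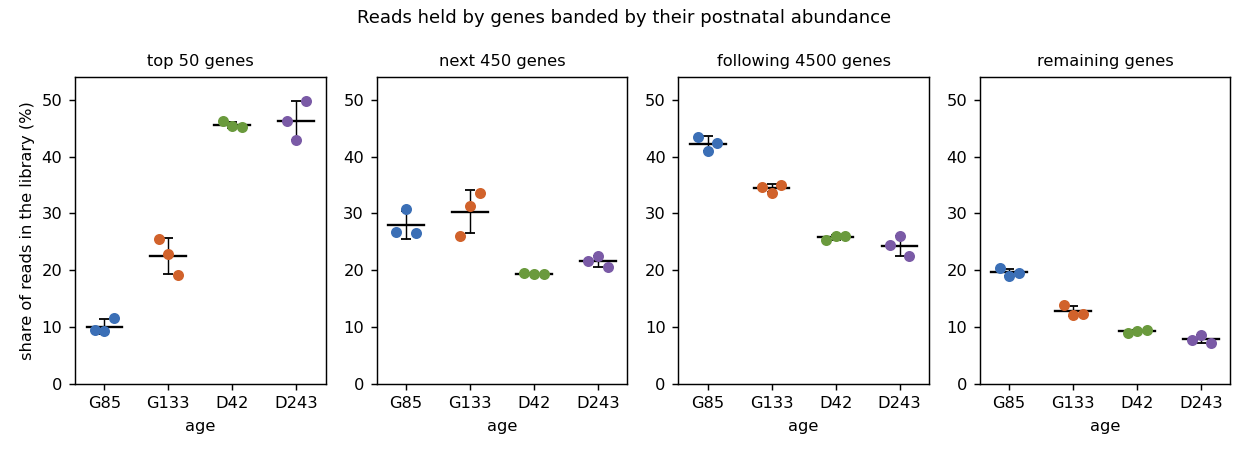
Share of reads (%) held by 4 bands of genes, ranked by mean CPM in the 6 postnatal libraries, in each of the 12 libraries by age. Points are libraries, lines are means and bars are SD (n = 3); the top 50 genes held 9.22% to 11.5% at G85 and 19.1% to 25.5% at G133, and 42.9% to 49.8% after birth.

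Gene by gene, the same bands differed in direction. On the median-ratio scale 4460 of 15743 genes changed (28.3%), 2019 higher (12.8%) and 2441 lower (15.5%) at G133. Among the 50 genes highest after birth 43 rose and 1 fell; their log2 changes had a median of 1.39 and quartiles of 1.09 and 2.14. Of the next 450, 232 rose (51.6%), 23 fell (5.11%) and the median was 0.74. Of the following 4500, 940 rose (20.9%), 542 fell (12%) and the median was 0.06. Of the remaining 10743, 804 rose (7.48%), 1875 fell (17.5%) and the median was -0.04, against 0.00 for all genes.

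As deposited, 8263 genes changed (52.5%), 995 higher (6.32%) and 7268 lower (46.2%), and the median of all genes was -0.37. Of the 50 genes highest after birth 38 rose and 1 fell as deposited, and the median change was 0.97 on the log2 scale. Of the next 450, 162 rose, 68 fell and the median was 0.33. In the following 4500 the counts were 441 and 2041, and in the remaining genes 354 and 5158, with medians of -0.34 and -0.40. The side with more calls among the following 4500 thus differed between the scales. Of the 2019 rises on the median-ratio scale 988 were also called as deposited, as were all 2441 falls. The other rises on that scale were not called as deposited. Another 4827 falls were called as deposited alone, and 0 genes were called in opposite directions.

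The counts of the bands depended on which libraries made the ranking, and the side with more calls turned in some of them. Ranked by the mean of the 6 fetal libraries instead, 22 of the top 50 rose and 4 fell on the median-ratio scale, and their median change was 0.79. Of the next 450 by that mean, 152 rose and 62 fell, and the median was 0.61. In the following 4500 more genes fell than rose by that mean, 811 against 757, where the postnatal ranking gave 940 rises and 542 falls. In the remaining genes 1088 rose and 1564 fell. As deposited, the fetal ranking gave 19 rises and 15 falls in the top 50, and 86 rises and 116 falls in the next 450, the reverse of the 162 and 68 by the postnatal ranking. It gave 366 and 2439 in the following 4500, and 524 and 4698 in the rest. Without G133 replicate 1, the postnatally ranked bands showed 41 rises and 1 fall in the top 50, 290 and 30 in the next 450, 1089 and 646 in the following 4500, and 1006 and 1892 in the rest. Some counts moved by more than 1.5 times without other libraries. Falls in the next 450 numbered 15 without G85 replicate 1, 13 without G85 replicate 2 and 12 without G133 replicate 2. Falls in the following 4500 numbered 360 without G133 replicate 2. Rises in the remaining genes numbered 509 without G85 replicate 1, 516 without G85 replicate 3 and 530 without G133 replicate 2.

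**Figure D2:**
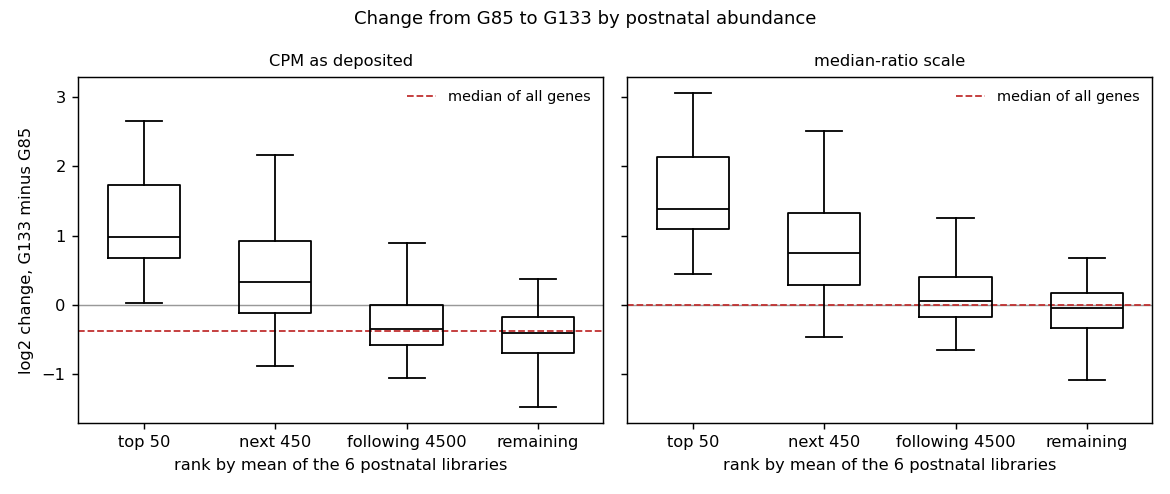
Log2 change, G133 minus G85, of genes in 4 bands of postnatal abundance, as deposited (left) and on the median-ratio scale (right). Boxes span the quartiles with the median as a line, whiskers the central 90% of genes, and the dashed line is the median of all genes (-0.37 and 0.00); band medians on the right were 1.39, 0.74, 0.06 and -0.04.

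In CPM as deposited, the gains were held by few genes and the losses by many. CPM are shares of a fixed total, and 3042 genes gained while 12700 lost in mean CPM. The median log2 change of all genes was -0.37 as deposited and 0.00 on the median-ratio scale, where gains and losses were not summed. The gains of all genes that gained in mean CPM came to 24.8% of reads, and so did the losses. Of the gains, 50% lay in 33 genes, and 25% lay in 5 genes. Those 5 genes were within the 11 most abundant after birth, and together went from 3.34% of reads (G85) to 9.95% (G133), 19.7% (D42) and 18.4% (D243). They were chosen by their gain between the fetal ages, so the first pair of values is a description; 4 of the 5 passed the test on each scale. Of the losses, 50% lay in 517 genes and 25% in 44 genes. Those 44 held 12.4% of reads at G85 and 6.14% at G133, and 2.94% and 3.07% at D42 and D243. Chosen by their loss, 27 of the 44 passed the test on the median-ratio scale and 41 as deposited. Of all genes, 15.5% were called lower on the median-ratio scale and 46.2% as deposited, and 12.8% and 6.32% higher.

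The most abundant genes of the fetal muscle were partly replaced. Of the 50 genes highest at G85, 33 were also among the 50 highest at G133. The 17 that left held 5.02% of reads at G85 and 1.9% at G133, and stood at ranks as low as 450 there. The 17 that entered came from ranks down to 350 at G85, and went from 2.04% to 5.14% of reads. They held 8.56% at D42 and 7.88% at D243, while the 17 that left held 1.07% and 0.969%. By construction those that entered gained and those that left lost. On the median-ratio scale 14 of the 17 that entered passed the test, as did 10 of the 17 that left. As deposited, 13 of those that entered and 17 of those that left did. Of all genes, 12.8% were called higher and 15.5% lower on the median-ratio scale, and 6.32% and 46.2% as deposited.

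Reads were concentrated in fewer genes at G133. The number of genes that held 50% of reads was 796, 572 and 728 in the G85 libraries, and 358, 244 and 242 in the G133 libraries. The groups did not overlap, and the means were 698.7 ± 115 and 281.3 ± 66.4 genes (SD, n = 3 each; exact permutation p = 0.1, the smallest possible). A library's top 10 genes took 8.428% ± 0.814 of its reads at G85 and 13.74% ± 1.41 at G133, and its top 500 genes 45.38% ± 2.49 and 57.81% ± 3.31. For neither measure did the ages overlap (adjusted p = 0.1 over 5 such measures by exact permutation tests). Replicate 1 had the highest share of the top 10 genes at G133, 15.3%, but the lowest share of the top 500, 54%.

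The largest rise in log2 terms was that of ENSOARG00000011052, which went from a gene of middling level to a highly expressed one. Its levels were 25.5, 21.1 and 18.6 CPM in the G85 libraries and 1531, 1474 and 878 CPM in the G133 libraries. All G133 libraries lay far above all G85 libraries, with replicate 3 the lowest of the G133 libraries. The means were 21.7 ± 3.5 and 1294 ± 361 CPM (SD, n = 3 each), a ratio of 59.6, and its rank moved from 7783 to 116. On the median-ratio scale the log2 change was 6.18 ± 0.194 (SE; limma adjusted p = 8.3e-09). After birth it stood at 1828 ± 104 CPM at D42 and 2168 ± 298 at D243.

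ENSOARG00000009785 gained the most reads among genes called on both scales. It held 1838, 2294 and 1744 CPM at G85 and 19140, 21503 and 16198 CPM at G133. The lowest G133 library was several times the highest G85 library. The gene moved from rank 41 to rank 3, with means of 1959 ± 295 and 18947 ± 2660 CPM, a ratio of 9.67. After rescaling, the log2 change was 3.69 ± 0.408 (SE; limma adjusted p = 4.08e-05) and 3.27 as deposited (limma adjusted p = 1.74e-06). Its gain was 6.84% of all gains. The single largest gain, 8.14% of the total, belonged to the most abundant gene, which went from 2.44% to 4.46% of reads and did not pass the test (log2 change 1.31 ± 1 on the median-ratio scale, SE; limma adjusted p = 0.369). At D42 ENSOARG00000009785 held 19172 ± 2730 CPM and at D243 16098 ± 1240, so the levels of the 2 postnatal ages overlapped those of G133.

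The largest fall in log2 terms was that of ENSOARG00000014513. Its levels were 199.1, 207.6 and 246.8 CPM at G85 and 3.83, 3.68 and 2.54 CPM at G133. The groups lay far apart, and the G133 values rested on 60, 72 and 59 reads. The means were 217.8 ± 25.4 and 3.35 ± 0.707 CPM, a ratio of 65 in favour of G85, and the rescaled log2 change was -5.22 ± 0.306 (SE; limma adjusted p = 5.04e-07). It stood at 0.881 ± 0.188 CPM at D42 and 1.08 ± 0.929 at D243, where 1 library had 4 reads.

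ENSOARG00000006200 lost the most reads. It held 6580, 5653 and 6651 CPM at G85, where it was the gene of rank 6, and 602.9, 269.7 and 198.0 CPM at G133, where its rank was 358. All G133 libraries lay below all G85 libraries, and the highest of them was replicate 1. The means were 6295 ± 557 and 356.9 ± 216 CPM, a ratio of 17.6 in favour of G85. The rescaled log2 change was -3.89 ± 0.314 (SE; limma adjusted p = 4.5e-06), and -4.27 without G133 replicate 1. The postnatal means were 237.9 ± 33.4 and 152.7 ± 46.9 CPM. These 4 genes were picked by their change in these same libraries, so their tests describe them and add no support.

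**Figure D3:**
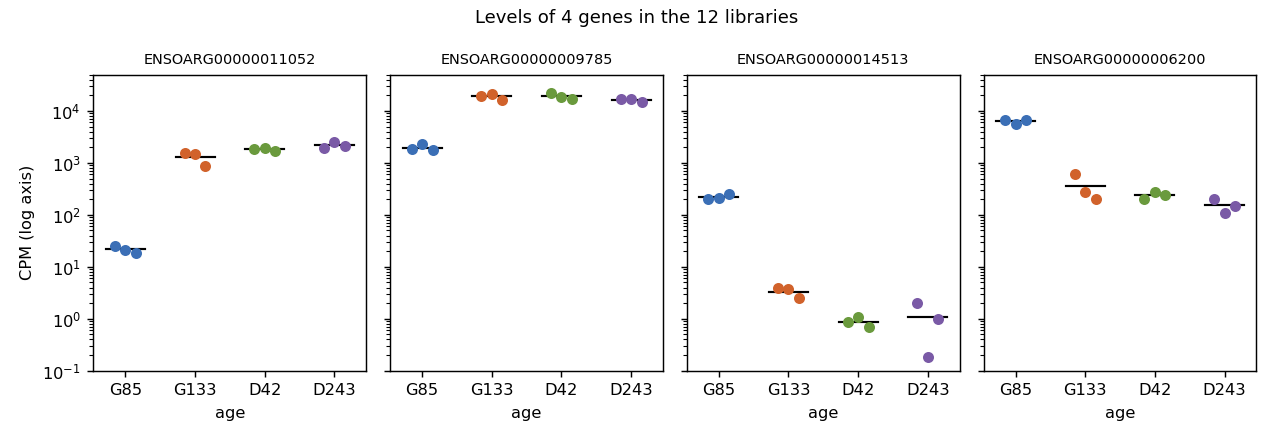
CPM on a log axis of 4 genes picked by the size of their change from G85 to G133, in all 12 libraries by age. Points are libraries and lines are means (n = 3); the 2 genes on the left went from means of 21.7 to 1294 and 1959 to 18947 CPM, and the 2 on the right from 217.8 to 3.35 and 6295 to 356.9 CPM.

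Large changes went in both directions. On the median-ratio scale, changes of at least 2-fold passed the test for 769 genes upward and 717 downward, of at least 4-fold for 162 and 96, of at least 8-fold for 32 and 25, and of at least 16-fold for 8 and 7. As deposited the same limits gave 427 and 1611, 96 and 230, 19 and 37, and 5 and 11. Of the 162 genes that rose at least 4-fold, 14 were among the 50 highest after birth, 42 were in the next 450, 78 in the following 4500 and 28 in the rest. Of the 96 that fell at least 4-fold, 0 were among the 50 highest, 1 was in the next 450, 13 were in the following 4500 and 82 in the rest. All 15743 genes divide into 50, 450, 4500 and 10743 over these bands. The top band is so small a part of all genes that 0 of 96 in it says little.

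After birth, genes with large rises had median levels above that of all genes, and genes with large falls had median levels below it. The 162 genes with a rise of at least 4-fold had a median level of 12.9 rescaled CPM at G85, against 78.4 (G133), 141 (D42) and 188 (D243). The 96 genes with such a fall had medians of 46.3, 5.78, 3.31 and 3.39. Over all 2019 rises the medians were 16.6, 33.2, 38.5 and 44.4, and over all 2441 falls they were 21.5, 11.3, 10.8 and 9.66. The median of all genes stayed between 14.6 and 15.3. The G85 and G133 levels chose these genes, so those levels, and any comparison of a postnatal level with them, are a description. The fold limit used no postnatal level, but the estimate of spread and the rescaling took in all 12 libraries. As sets, the genes with large rises or falls already stood above or below the median of all genes at G133. Their postnatal levels are therefore a description too.

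A small set of genes crossed 1 CPM between the fetal ages. As deposited, 186 genes had at least 1 CPM in every G85 library and less than 1 CPM in every G133 library, and 44 had the reverse. The choice fixes the direction of these genes, so their calls are a description. On the median-ratio scale 132 of the 186 were called lower and 38 of the 44 higher, beside 15.5% and 12.8% of all genes. Of the 186, 159 were also under 1 CPM in all 3 D42 libraries and 2 were at 1 CPM or more in all 3. Of the 44, 24 were at 1 CPM or more in all D42 libraries and 10 were under 1 CPM in all. Of the 14737 genes with at least 1 CPM in all 6 fetal libraries, 14198 were at 1 CPM or more in all D42 libraries. Another 151 of them were under 1 CPM in all 3. That set was not matched for level, and no share over genes of like level was taken, so these counts are a description. A further limit was met by few: 4 genes went from at least 10 CPM in every G85 library to under 1 CPM in every G133 library, and 1 gene did the reverse. Every gene in the table reached 1 CPM in at least 3 of the 12 libraries, so a gene low at all ages but one is present only through that age.

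The size of the change varied with the G133 library in which it was read. Each of the 6 fetal libraries was left out in turn, genes were called from the remaining 11 on the median-ratio scale, and the change was then read in the library left out, as a percentage of the change in the other libraries. The genes were called against the same libraries of the other age that the library left out was then read against. A value above 0% thus arises with no change, and the values only compare the libraries with each other. Each library was read over its own list of genes, and the part of the differing lists in the medians was not tested. In G133 replicate 1 the median of the 2433 genes called higher without it was 61.9% of the change. It was 106% in replicate 2 (1482 genes) and 94.1% in replicate 3 (1571 genes). For the 2555 genes called lower the median was 74.5% in replicate 1, against 109% (1817 genes) and 97.7% (1961 genes) in replicates 2 and 3.

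The G85 libraries were read in the same way. For genes called higher the median was 79.3% of the change in replicate 2, against 103% and 104% in replicates 1 and 3. For genes called lower it was 106% in replicate 2, against 93.8% and 84.3%. In that reading the rescaling factors were those of all 12 libraries. With the factors also computed afresh, leaving out G133 replicate 1 raised the number of genes called from 4460 to 4995, 2426 higher and 2569 lower. Leaving out any of the other 5 fetal libraries gave at least 3302 genes.

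**Figure D4:**
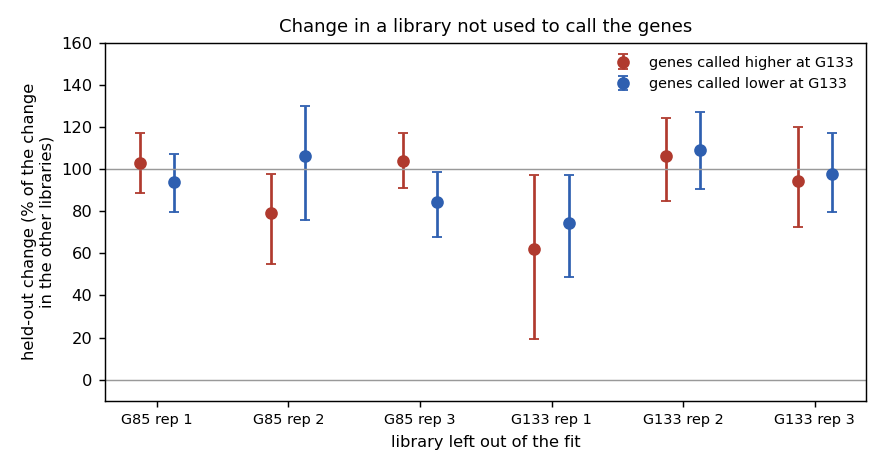
Change from G85 to G133 read in each fetal library left out of the fit, as a percentage of the change in the other libraries, for genes called higher or lower without it. Points are medians over genes and bars the quartiles; G133 replicate 1 had medians of 61.9% and 74.5%, the other G133 libraries 94.1% to 109%.

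More genes differed at least 2-fold between the fetal ages than between the postnatal ages, a step that shares no library with the fetal one. On the median-ratio scale 1529 of all 15743 genes differed at least 2-fold between the mean log2 levels of G85 and G133, and 398 did between D42 and D243. The median size of the log2 difference was 0.256 and 0.197. These are differences of means with no test. The postnatal columns share numbers read here as animals, while the fetal columns do not, and abundant fetal genes were more spread at G133. The part of either in the counts was not tested. From D42 to D243, 1138 genes rose (7.23%) and 700 fell (4.45%), or 1130 and 728 with the postnatal animals as a block. In a test of the difference between the 2 steps, (G133 minus G85) minus (D243 minus D42), 2980 genes passed (18.9%; limma, adjusted p under 0.05). Of these, 1187 were more positive in the fetal step (7.54%) and 1793 more negative (11.4%). The count was 2985 with the postnatal animals as a block, and 3271 as deposited, with 844 more positive and 2427 more negative.

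The bands of postnatal abundance also differed in this test. The postnatal libraries that made the ranking are part of this test, so the counts by band are a description. Of the 50 genes highest after birth, 20 were more positive in the fetal step (40%) and 1 more negative, with a median difference of 1.09 on the log2 scale. From D42 to D243, 4 of these 50 rose, 0 fell and the median change was 0.30. Of the next 450, 112 were more positive in the fetal step (24.9%) and 34 more negative (7.56%). In the following 4500 the counts were 466 and 544, and in the rest 589 and 1214.

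Some genes were called at both steps. Of the 2019 fetal rises 336 rose again from D42 to D243 (16.6%, against 7.23% of all genes), and 103 fell there (5.1%, against 4.45%). Of the 2441 fetal falls 211 fell again (8.64%, against 4.45%), and 124 rose (5.08%, against 7.23%). The 336 genes made up 29.5% of the postnatal rises and the 211 genes 30.1% of the postnatal falls. Without G85 replicate 1 the counts were 218 rises at both steps, 133 falls at both and 140 opposite calls, in place of 336, 211 and 227; without G133 replicate 1 falls at both numbered 317. With the postnatal animals as a block they were 321, 219 and 229. As deposited, 69 of the 995 fetal rises rose again and 990 of the 7268 fetal falls fell again, with 198 opposite calls. On that scale 2.22% of all genes rose and 10.7% fell from D42 to D243. Both steps were tested with 1 estimate of each gene's spread, so a gene with a low estimate passes more easily at both. Across the 15743 genes the changes of the 2 steps had a Pearson correlation of 0.213 and a Spearman correlation of 0.243, with genes not being independent of each other.

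**Figure D5:**
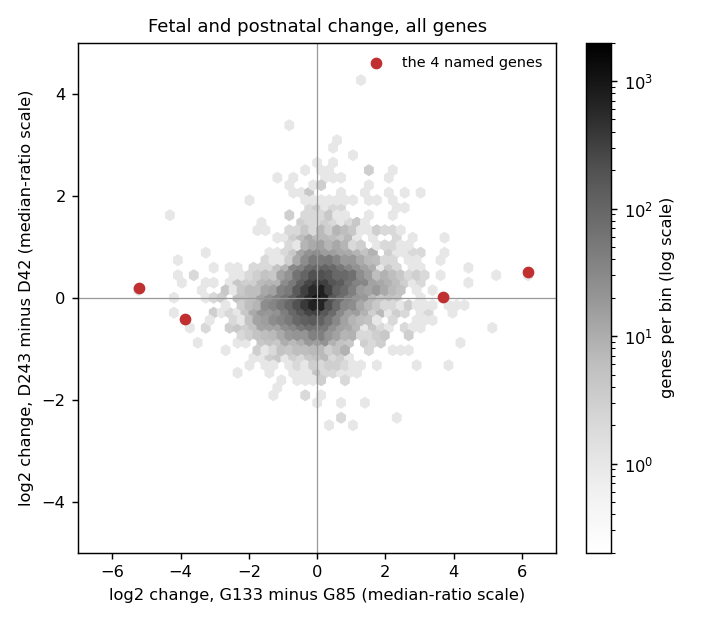
Log2 change of 15743 genes from G85 to G133 (horizontal axis) and from D42 to D243 (vertical axis), both on the median-ratio scale. Shading gives the number of genes per bin on a log scale and red points are the 4 genes named in the text, whose fetal changes of -5.22 to 6.18 stand beside postnatal changes of -0.41 to 0.50.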

How the data were processed

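The authors deposited 1 table of CPM for 15743 genes in 12 libraries. Trizol RNA was selected for poly(A) and made into NEBNext Ultra II libraries, per the labels' protocols. The submitters' processing notes name RSEM 1.3.3, edgeR 3.34.1, featureCounts 2.0.2, Trim Galore 0.6.6 and FastQC 0.11.9. The tools' roles, the genome build and strandedness were not given in the sources used here. Values above 0 were whole multiples of 1 read in each library (100% of values within 0.01 reads), which gave the read totals; these cover genes kept in the table. Columns were matched to samples by description, and groups and replicate numbers come from the titles.

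With limma 3.58.1 in R 4.3.3, log2(CPM + 1) of all 12 libraries was fitted with age as the only term, leaving 8 residual degrees of freedom; variances were moderated along a mean-variance trend. The scale of log2(CPM + 1) understates changes of low genes. The same fit was made on the median-ratio scale, for both the fetal step and its difference from the postnatal one. The planned filter (at least 1 CPM in 3 libraries) removed 0 genes. P-values are two-sided. Count models, edgeR 4.0.16 and DESeq2 1.42.0, were run on recovered reads as alternatives. The fits were run on simulated data with equal numbers of rises and falls, the same spread setting for all genes and ages, and no outlying library. Those settings differ from these data, so the run only checked that the code finds planted changes. No 2 fetal replicates agreed within sampling noise (chi-square per degree of freedom 23.6 to 148).

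The rule for named genes took, in each direction, the largest log2 change on the median-ratio scale and the largest difference in mean CPM, among genes called on both scales with a mean of at least 10 CPM in the fetal libraries. Gene lists prepared by symbol were not used, since identifiers matched 0 entries. D42 and D243 columns share 3 numbers, read here as animals though no label says so; deviations of same-numbered libraries correlated at 0.162 to 0.189. The groups compared, the bands and the tests were chosen with earlier results of these data known.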

Additional observations from a re-analysis of the deposited data

Results flagged for a closer look

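The changes of the 4 named genes between the fetal ages were each tested against their changes between the postnatal ages, on the median-ratio scale with limma. For ENSOARG00000011052 the fetal log2 change of 6.18 exceeded the postnatal one of 0.50 by 5.68 ± 0.274 (SE; limma adjusted p = 6.44e-07). For ENSOARG00000009785, 3.69 against 0.02 gave a difference of 3.67 ± 0.578 (limma adjusted p = 0.00123). ENSOARG00000014513 had -5.22 against 0.18, a difference of -5.40 ± 0.433 (limma adjusted p = 1.55e-05). ENSOARG00000006200 had -3.89 against -0.41, a difference of -3.48 ± 0.444 (limma adjusted p = 0.000366). Each difference kept its direction and passed the test in all 14 alternatives run, among them the removal of each of the 12 libraries. The genes were picked by their fetal change, which favours a large difference.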

How the results depend on the processing

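Of 389 alternative values over 29 results, 342 kept their call or, for counts, stayed within 1.5 times. Fold changes and their differences between steps were followed only for the 4 named genes, which were picked for large changes. None of these turned its sign, which says nothing of other genes. The setting with no filter repeats the main fit, since the filter removed 0 genes. Rises and falls were counted as separate values, so a change in which of them was more numerous is not covered by these totals. Such a change occurred in the bands below. The log2 changes of the 4 named genes passed in all 18 alternatives, from 5.80 to 6.40, 3.27 to 3.86, -5.66 to -4.44 and -4.30 to -3.58.

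Scaling set the counts. Against 8263 calls as deposited (995 higher, 7268 lower), median ratio gave 4460 (2019 and 2441), trimmed mean of M values (TMM) factors 4432 (2030 and 2402) and quantile normalization 4747 (2144 and 2603). On recovered reads edgeR with TMM factors called 4742 (2282 and 2460) and DESeq2 5205 (2503 and 2702; 62 genes had no adjusted p). edgeR with library totals alone, chosen after seeing the data, called 8219. By band, falls in the next 450 genes were 68 as deposited, and rises and falls 441 and 2041 in the following 4500 and 354 and 5158 in the rest. Ranked by the fetal mean, the top 50 had 22 rises and 4 falls, the next 450 had 152 and 62 and the following 4500 had 757 and 811, the last turning the 940 and 542 of the postnatal ranking. As deposited, the fetal ranking gave 86 and 116 in the next 450. As deposited, 69 of the 995 fetal rises and 990 of the 7268 fetal falls were called the same way at both steps. From D42 to D243, 2.22% of all genes rose and 10.7% fell on that scale.

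A stricter rule must call fewer: a change of at least 2-fold left 2038 (427 higher, 1611 lower) as deposited and 1486 (769 and 717) rescaled. An adjusted p under 0.01 left 5240 (4541 lower) as deposited, 2742 (1215 and 1527) rescaled and, for the difference between steps, 1456 (597 and 859). The share of the top 50 genes differed by 8.292 percentage points between ages, that of the top 10 by 5.307 and of the top 500 by 12.44.

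Without single libraries, calls ranged from 5895 to 9653 as deposited, from 3302 to 4995 rescaled and from 2277 to 3499 for the difference between steps. Falls in the next 450 genes ranged from 12 to 30, in the following 4500 from 360 to 646, and rises in the rest from 509 to 1006. Rises at both steps ranged from 218 to 462, falls at both from 133 to 317 and opposite calls from 140 to 271; these removals by band and by step were chosen after seeing the data.

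The replicate numbers were not taken to pair G85 with G133, since the columns of these 6 libraries carry different numbers. Deviations of libraries with the same replicate number correlated at 0.335, 0.132 and -0.12. Those with different replicate numbers correlated at -0.286 to 0.242, and so few libraries cannot decide on pairing. With the replicate block 4114 genes were called on the median-ratio scale and 8112 as deposited, against 4165 and 7109 without it in the same 6 libraries. The postnatal animals as a replicate block left 2985 differences between steps and, chosen after seeing the data, 321 rises and 219 falls at both steps; it moved no count by 1.5 times.

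With 3 libraries an age, an exact permutation test of 1 value per library cannot go below 0.1. Genes near 1 CPM rest on few reads.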

Other observations

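The spread between replicates differed with abundance at both fetal ages, and in the upper bands it was larger at G133 than at G85. Over all 15743 genes the median SD of log2 levels on the median-ratio scale was 0.146 at G85 and 0.165 at G133, with 0.146 at D42 and 0.166 at D243. Among the 450 genes after the top 50 by fetal mean it was 0.247 at G85 and 0.438 at G133, and 0.133 and 0.142 at the postnatal ages. In this band 349 of 450 genes (77.6%) were more spread at G133 than at G85, against 57.6% of all genes. Among the top 50 by fetal mean the medians were 0.291 and 0.411, and 35 of 50 were more spread at G133. In the following 4500 the medians were 0.145 and 0.136, with 52.2% more spread at G133. In the remaining 10743 they were 0.142 and 0.169, with 58.9% more spread at G133. G133 replicate 1 stood apart from the other G133 libraries, and its part in this spread was not tested. The limma tests used 1 estimate of spread per gene over all ages, so in the upper bands it takes in the smaller postnatal spread. With the 6 fetal libraries alone, 4165 genes were called on the median-ratio scale, against 4460. The limma adjusted p of the 4 named genes was then 9.92e-06 to 0.00329, against 8.3e-09 to 4.08e-05. That fit also has fewer residual degrees of freedom.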
